A study of Mus musculus with 13 samples.

Results

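The genes described here are the enzymes, transporters and regulators of glycolysis together with genes of the hypoxia-inducible factor (HIF) pathway. They were taken as the rows whose symbol is on a list of 44 mouse gene symbols. Of these, 43 were found among the 24328 genes of each file, 26 belonging to glycolysis and its pyruvate and lactate branches and 17 to the HIF arm. The listed symbol Pkm2 was absent and the same gene was present as Pkm, so the splice forms of pyruvate kinase were read as 1 gene.

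The study sequenced mRNA from mouse bone marrow cells in 13 libraries, from leukemias carrying the MLL-AF10 fusion and from normal progenitors. In the time course, leukemia stem cells (LSC) carrying MLL-AF10 received A-485, which blocks the acetyltransferase activity of p300 and CBP, for 8, 24, 48 or 72 h, and the 0 h cells were labelled untreated, with 2 libraries at each time. The other 3 libraries were tumor cells labelled mature AML cells (mAML), tumor LSC outside the time course, and granulocyte-monocyte progenitors (GMP) from a wild-type source, with 1 library each. The growth medium given for the leukemia cells held serum and WEHI-conditioned medium. No source used here gives the A-485 dose, the age of the animals or any vehicle treatment at the later times. Hours in culture and hours of A-485 therefore cannot be told apart. Nothing says that the paired libraries of a time came from separate cultures, so the p-values measure the spread between these libraries, which may be technical.

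Glycolysis takes glucose into the cell, phosphorylates and splits it, and yields pyruvate, which is either made into lactate and exported or passed to the mitochondria. HIF is a pair of proteins, an oxygen-regulated alpha subunit (Hif1a or Epas1) and a constant partner (Arnt). It switches on most glycolysis genes, glucose and lactate transporters and a set of other genes when oxygen is low, and recruits p300 and CBP as coactivators. Prolyl hydroxylases (Egln1, Egln3) mark the alpha subunit in the presence of oxygen, and the Vhl protein then directs its destruction. These controls act on protein, and mRNA levels do not report them.

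Time-course libraries held 6467762 to 9763278 counts and the single libraries 24532513 to 47257637. The libraries differed in more than these genes. Marker lists are given as sums in TPM (transcript levels scaled for length and depth). The 9 of 9 LSC and GMP markers found summed to 5678 and 4483 TPM at 0 h, 990.3 and 427 at 8 h, 557 and 469 at 72 h, and 27394 in LSC. Within that list the granule genes Mpo, Elane and Prtn3 and the receptor Kit were far lower at 8 and 72 h than at 0 h, and the transcription factor genes Hoxa9 and Meis1 went the other way. Hoxa9 was at 48.5 and 59.9 TPM at 0 h and 145 and 146 TPM at 72 h, and Meis1 at 12.5 and 19.7 TPM at 0 h and 68.5 and 46.6 TPM at 72 h. The 10 of 11 mature myeloid markers found summed to 5570 and 1525 TPM at 0 h, 994 and 325 at 8 h, 365 and 312 at 72 h, and 22303 in LSC. In that list Mmp8 was at 0 in all 10 time-course libraries, and Itgam was at 211 and 185 TPM at 0 h, 79.8 and 72.1 at 8 h, and 254 and 257 at 72 h. The 5 of 5 mast cell, basophil and eosinophil markers summed to 416 and 595 TPM at 0 h, 176 and 37.9 at 8 h, 6.53 and 15.1 at 72 h, and 18.2 in LSC. The 5 of 5 megakaryocyte markers summed to 189 and 169 TPM at 0 h, 105 and 249 at 8 h, 34.6 and 14.0 at 72 h, and 22.9 in LSC, with Itga2b above LSC at 0 h and Gp9 below it. The 11 of 12 erythroid markers found summed to 349 and 343 TPM at 0 h, 131 and 526 at 8 h, 18.2 and 18.1 at 72 h, and 40.2 in LSC. The sum of 10 of 11 T and NK markers was 198 and 103 TPM at 0 h, 29.8 and 20.8 at 8 h, 4.85 and 4.29 at 72 h, and 156 in LSC. Of this sum, Nkg7 gave 182 and 92.2 TPM at 0 h and 153 in LSC. Cd3d, Cd3e, Cd3g, Cd4 and Cd8a were each at 0.91 TPM or less in these libraries. The 7 of 7 stromal and endothelial markers summed to 375 and 332 TPM at 0 h, 213 and 259 at 8 h, 246 and 139 at 72 h, and 11.0 in LSC. Nearly all of this was Pecam1 (375 and 331 TPM at 0 h, 9.63 in LSC), and Cdh5 and Kdr were at 0.06 TPM or less in these libraries. The 7 of 7 B markers summed to 0 and 0.4 TPM at 0 h and 48.8 in LSC, where Cd79b was at 48.2. Transcripts read at 72 h were longer on average (3787 and 3670 nt, against 3128 and 3115 nt at 0 h). The nuclear RNA Malat1 was at 745 and 819 TPM at 72 h, against 53.3 and 54.4 TPM at 0 h. The part of these differences in the results was not tested.

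Most of the glycolysis and HIF genes fell within 8 h of A-485. Of 39 members with enough counts to test, 34 were lower at 8 h than at 0 h and 1, Arnt, was higher. Over all 11119 genes tested, 21% were lower and 17.9% higher (edgeR quasi-likelihood test, Benjamini-Hochberg adjusted p under 0.05). The median log2 change of the members was -1.84, against 0.01 for all genes tested. Glycolysis accounted for 23 of the lower calls, of 24 tested, and the HIF arm for 11 of 15. In bulk samples, fewer cells of a type and less RNA per cell cannot be told apart.

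The fall persisted. At 24 h, 30 members were lower and 1 higher, against 27.1% and 23.2% of all genes. At 48 h the counts were 31 and 1, against 30.5% and 25.2%, and at 72 h 33 and 1, against 29.4% and 25.9%. Median changes of the members were -1.28 at 24 h, -1.10 at 48 h and -1.37 at 72 h. The 4 times share the 0 h libraries. Called lower at every time were 29 members, and 26 of the 39 had their lowest value among the treated times at 8 h, none at 24 h, 4 at 48 h and 9 at 72 h. Hif1a, Epas1 and Vhl did not pass the test at any time, and the 4 treated times tested together called 36 of 39 members, against 59.8% of all genes.

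How many members were called lower later in the course depended on scaling. The main values use TMM, which centres the bulk of the tested genes and gave factors of 1.07 in both 72 h libraries, against 0.830 and 0.832 at 0 h. Scaling by library size alone moved the median of all genes to 0.33 at 8 h and 0.35 at 72 h, and the members were then 33 lower and 1 higher at 8 h, and 28 lower and 4 higher at 72 h. On log2(TPM + 1), tested with limma, the median of all genes was 0.41 at 8 h and 0.62 at 72 h, with 31 members lower and 2 higher at 8 h and 21 lower and 4 higher at 72 h. Among all called genes the lower share at 8 h was 54.0% in the main fit, 27.2% by library size and 21.8% on TPM. At 72 h the shares were 53.2%, 32.6% and 21.2%. The 12 members called lower at 72 h in the main fit and not on TPM were Slc2a1, Hk3, Pfkl, Pfkm, Pfkfb3, Aldoa, Aldoc, Pdk3, Egln1, Bnip3l, P4ha1 and Ddit4, with Pfkm and Ddit4 at 0.23 and 0.27. No spike-in was given that would set an absolute scale.

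**Figure D1:**
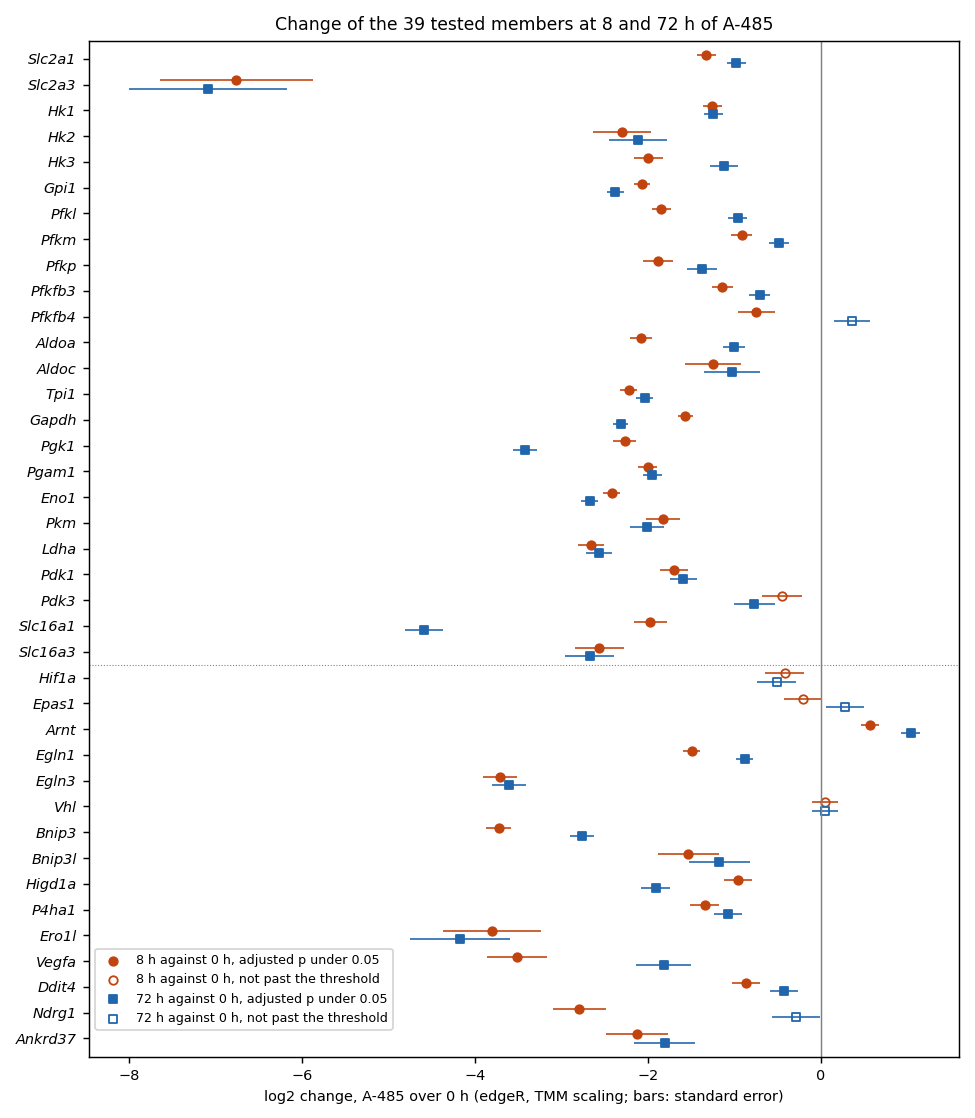
Log2 change of the 39 tested members at 8 h (circles) and 72 h (squares) of A-485 over 0 h, in pathway order, with glycolysis above the dotted line and the HIF arm below it. Bars are standard errors, and filled symbols passed an adjusted p of 0.05. All but Epas1 and Hif1a among the members below 0 at 8 h keep that direction on log2(TPM + 1), where Pfkm, Hif1a, Ddit4 and Ndrg1 turn positive at 72 h.

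Within glycolysis, all 15 steps had at least 1 member called lower at 8, 24, 48 and 72 h. On log2(TPM + 1) at 72 h the aldolase step and that of Pfkfb3 and Pfkfb4 had none. Earlier calls also depended on the setting. Aldoa, Pfkfb3, Pdk1 and Pdk3 at 48 h, and Pfkfb3 at 24 h, were each called lower in 18 of 20 alternative settings. Levels are TMM-scaled counts (CPM, counts scaled to a common depth) for each library, which compare libraries within 1 gene, and changes are on the log2 scale ± standard error. The member of a step with the highest mean TPM in the time course is given in full. The sum of 18 enzyme genes made up 2.63% and 2.80% of all TPM at 0 h. It made up 0.922% and 0.992% at 8 h, 1.10% and 1.03% at 24 h, 1.20% and 1.14% at 48 h, and 1.11% and 1.05% at 72 h. Every treated library was below both 0 h libraries. Gapdh and several other enzyme genes have processed pseudogenes, and how reads were divided among such copies is not given in the sources used here, so absolute levels are uncertain.

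Glucose entry runs through the transporters Slc2a1 (GLUT1) and Slc2a3 (GLUT3). Slc2a1 had 184 and 189 CPM at 0 h, 78.8 and 70.2 at 8 h, 85.8 and 72.0 at 24 h, 101 and 100.3 at 48 h and 95.4 and 94.0 at 72 h. All 8 treated libraries lay below both 0 h libraries. Its change was -1.32 ± 0.11 at 8 h and -0.98 ± 0.11 at 72 h (edgeR adjusted p = 0.000107 and 0.000172). Slc2a3, the high-affinity transporter, had 153 and 84.8 CPM at 0 h, 1.96 and 0.224 at 8 h, 4.11 and 0.356 at 24 h, 1.63 and 0.725 at 48 h and 0.751 and 0.957 at 72 h. Treated libraries kept 2 to 38 counts of it, against 1238 and 609 counts at 0 h. Slc2a3 had the largest fitted change of the members at 8 h, -6.76 ± 0.88 (edgeR adjusted p = 0.000708). With so few counts the size is loose: it was -8.94 without 8 h replicate 1 and -5.91 without 8 h replicate 2. At 24 h it was -5.70, with -8.32 without 24 h replicate 1 and -4.85 without 24 h replicate 2.

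Hexokinases trap glucose as glucose 6-phosphate. The most abundant in these cells was Hk3, a form of myeloid cells, with 744 and 839 CPM at 0 h, 165 and 232 at 8 h, 515 and 584 at 24 h, 431 and 390.3 at 48 h and 382 and 349 at 72 h. It was lowest in both 8 h libraries, and 24 h libraries lay between those and 0 h. At 8 h it changed by -1.996 ± 0.17 and at 72 h by -1.11 ± 0.16 (edgeR adjusted p = 9.29e-05 and 0.000575). The 24 h call of Hk3, -0.53 ± 0.16, was lost without 0 h replicate 1 (-0.58), 0 h replicate 2 (-0.40) or 24 h replicate 1 (-0.44). That call held in 14 of 20 alternative settings, over which the change was as small as -0.006. Hk1, the general form, and Hk2, a HIF-responsive form, were lower at all 4 times, with changes of -0.94 to -1.25 for Hk1 and -1.70 to -2.30 for Hk2. Without 24 h replicate 1 the Hk2 change at 24 h was -2.99 in place of -2.28.

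Gpi1, which isomerises glucose 6-phosphate to fructose 6-phosphate, had 3154 and 3444 CPM at 0 h, 797 and 774 at 8 h, 956 and 887 at 24 h, 734 and 746 at 48 h and 649 and 622 at 72 h. Both 0 h libraries stood far above the rest. It fell (log2 change -2.07 ± 0.09 at 8 h and -2.38 ± 0.10 at 72 h, edgeR adjusted p = 9.75e-06 and 2.54e-06).

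Phosphofructokinase makes the committed step. Pfkl, the liver-type subunit, had 521 and 542 CPM at 0 h, 143 and 153 at 8 h, 296 and 267 at 24 h, 324 and 302 at 48 h and 293 and 252 at 72 h. The 8 h libraries were the lowest, and later libraries stood between them and 0 h. Pfkl changed by -1.84 ± 0.11 at 8 h and -0.96 ± 0.11 at 72 h (edgeR adjusted p = 2.39e-05 and 0.000144). The platelet-type Pfkp was lower at all 4 times (-1.37 to -1.88). The muscle-type Pfkm was also lower at all 4 times in the main fit, with smaller changes (-0.37 to -0.91). Over the 20 alternative settings Pfkm reached 0.15 at 24 h and 0.08 at 48 h, and kept its direction in 18 at each time. It passed the test in 12 of 20 at 24 h and 17 at 48 h. Its 72 h call was lost without 0 h replicate 2 (-0.37) or 72 h replicate 1 (-0.41), and its 24 h call without 0 h replicate 1 (-0.41), 0 h replicate 2 (-0.27) or 24 h replicate 1 (-0.30).

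The bifunctional enzymes Pfkfb3 and Pfkfb4 set the level of fructose 2,6-bisphosphate, an activator of phosphofructokinase. Pfkfb3 had 219 and 203 CPM at 0 h, 86.0 and 106 at 8 h, 119 and 129 at 24 h, 123 and 110.3 at 48 h and 135 and 124 at 72 h. No treated library reached the 0 h libraries. The change was -1.14 ± 0.13 at 8 h and -0.71 ± 0.13 at 72 h (edgeR adjusted p = 0.000329 and 0.00163). Pfkfb4 did otherwise, with 33.9 and 34.7 CPM at 0 h, 24.4 and 16.5 at 8 h, 40.9 and 32.9 at 24 h, 45.8 and 48.0 at 48 h and 39.2 and 48.8 at 72 h. Both 8 h libraries lay below 0 h, the 24 h libraries lay on either side of it, and the 48 and 72 h libraries lay above it. Pfkfb4 was lower at 8 h (-0.75 ± 0.21, edgeR adjusted p = 0.0232), and 72 h gave 0.36 ± 0.21 (edgeR adjusted p = 0.169). The 8 h call of Pfkfb4 was lost without 0 h replicate 1 (-0.72), 0 h replicate 2 (-0.69) or 8 h replicate 2 (-0.49), and by library size and on TPM it was not called at 8 h and was higher at 72 h (0.73 and 1.01).

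Aldolase splits the 6-carbon sugar. Aldoa had 3865 and 4716 CPM at 0 h, 1075 and 961 at 8 h, 1934 and 1704 at 24 h, 2255 and 2173 at 48 h and 2117 and 2165 at 72 h. It was lowest at 8 h and stood at an intermediate level from 24 h on. Aldoa changed by -2.08 ± 0.13 at 8 h and -1.003 ± 0.12 at 72 h (edgeR adjusted p = 2.75e-05 and 0.000239). In TPM, Aldoa had 3170 and 3086 at 72 h, against 3466 and 4219 at 0 h. The minor form Aldoc was lower at 8 h (-1.25 ± 0.32, edgeR adjusted p = 0.0162) and at 72 h (-1.02 ± 0.32, edgeR adjusted p = 0.025). Its 8 h call was lost without 0 h replicate 1 (-0.81), 8 h replicate 1 (-1.21) or 8 h replicate 2 (-1.27), and its 72 h call without 0 h replicate 1 (-0.59) or 72 h replicate 2 (-0.68). At 48 h Aldoc (-0.78) was called lower without 0 h replicate 2 (-1.03), 72 h replicate 1 (-0.77) or 72 h replicate 2 (-0.77).

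After the sugar is split, Tpi1, Gapdh, Pgk1, Pgam1, Eno1 and Pkm all fell at every time. Tpi1, which interconverts the triose phosphates, had 1559 and 1621 CPM at 0 h, 318 and 364 at 8 h, 469.5 and 465 at 24 h, 414 and 422 at 48 h and 391 and 385 at 72 h. Treated libraries did not overlap the 0 h libraries. Tpi1 fell (log2 change -2.22 ± 0.10 at 8 h and -2.04 ± 0.10 at 72 h, edgeR adjusted p = 9e-06 and 4.46e-06). Gapdh, which oxidises glyceraldehyde 3-phosphate and often serves to normalise quantitative PCR, had 8328 and 8596 CPM at 0 h, 2855 and 2862 at 8 h, 2187 and 2152 at 24 h, 1999 and 1989 at 48 h and 1695 and 1705 at 72 h. Its paired libraries were close at each treated time and its level went on down after 8 h. The Gapdh change was -1.57 ± 0.09 at 8 h and -2.32 ± 0.09 at 72 h (edgeR adjusted p = 1.78e-05 and 2.16e-06).

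Pgk1 and Pgam1 carry the pathway to 2-phosphoglycerate, Pgk1 with the first ATP yield. Pgk1 had 2807 and 3106 CPM at 0 h, 655 and 573 at 8 h, 391 and 318 at 24 h, 332 and 328 at 48 h and 263 and 287 at 72 h. Libraries from 24 h on were below both 8 h libraries, which were below both 0 h libraries. Its change was -2.27 ± 0.13 at 8 h and -3.43 ± 0.14 at 72 h (edgeR adjusted p = 1.89e-05 and 2.54e-06). Pgam1 had 1722 and 1494 CPM at 0 h, 380.0 and 422 at 8 h, 484.95 and 475 at 24 h, 487 and 449.9 at 48 h and 437 and 397 at 72 h. Its treated libraries formed 1 narrow range far below 0 h. Pgam1 changed by -2.004 ± 0.11 at 8 h and -1.95 ± 0.11 at 72 h (edgeR adjusted p = 1.82e-05 and 9.37e-06).

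Enolase and pyruvate kinase complete the path to pyruvate. Eno1 had 4812 and 5006 CPM at 0 h, 889 and 949.9 at 8 h, 918 and 859.8 at 24 h, 854 and 829.9 at 48 h and 802 and 741 at 72 h. The 8 treated libraries all lay below 0 h in a narrow band. Eno1 fell (log2 change -2.42 ± 0.10 at 8 h and -2.67 ± 0.10 at 72 h, edgeR adjusted p = 6.89e-06 and 2.16e-06). The neuronal enolase Eno2 was listed at 0 in 10 of 13 libraries and was not tested. Pkm had 4664 and 5223 CPM at 0 h, 1081 and 1716 at 8 h, 1354 and 1498 at 24 h, 1281 and 1241 at 48 h and 1301 and 1158 at 72 h. Its 8 h libraries differed most from each other, and both were below 0 h. Pkm changed by -1.82 ± 0.20 at 8 h and -2.01 ± 0.20 at 72 h (edgeR adjusted p = 0.000288 and 7.64e-05).

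Ldha and both lactate transporters fell. Ldha, the subunit that favours lactate formation, had 2478 and 2572 CPM at 0 h, 453 and 346 at 8 h, 566 and 495 at 24 h, 521 and 544 at 48 h and 395 and 458 at 72 h. Treated and 0 h libraries did not overlap. Ldha fell (log2 change -2.66 ± 0.15 at 8 h and -2.57 ± 0.15 at 72 h, edgeR adjusted p = 1.82e-05 and 9.85e-06). Ldhb, the other subunit, had at most 5 counts in any time-course library and was not tested. Slc16a3 (MCT4), a lactate exporter, had 469.6 and 484 CPM at 0 h, 100.2 and 61.0 at 8 h, 124 and 76.3 at 24 h, 120.4 and 108 at 48 h and 65.1 and 84.3 at 72 h. Every treated library was far below 0 h. Its change was -2.56 ± 0.28 at 8 h and -2.67 ± 0.28 at 72 h (edgeR adjusted p = 0.00032 and 0.000112). Slc16a1 (MCT1), a lactate transporter that works in both directions and was singled out here after its values were seen, had 113 and 117 CPM at 0 h, 30.3 and 28.4 at 8 h, 5.08 and 7.71 at 24 h, 3.52 and 3.63 at 48 h and 5.38 and 4.19 at 72 h. Its 24 to 72 h libraries were well below the 8 h libraries. Slc16a1 fell (log2 change -1.97 ± 0.19 at 8 h and -4.59 ± 0.22 at 72 h, edgeR adjusted p = 0.000171 and 4.7e-06).

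Pyruvate dehydrogenase kinases inhibit pyruvate dehydrogenase, which turns pyruvate into acetyl-CoA within the mitochondria. Pdk3 had 109 and 114 CPM at 0 h, 71.8 and 91.7 at 8 h, 68.4 and 99.7 at 24 h, 56.6 and 55.9 at 48 h and 79.4 and 51.6 at 72 h. All treated libraries lay below both 0 h libraries, with wide gaps between replicates at 8, 24 and 72 h. Pdk3 did not pass the test at 8 h (-0.45 ± 0.23, edgeR adjusted p = 0.159) and was lower at 72 h (-0.77 ± 0.24, edgeR adjusted p = 0.0224). The 72 h call was lost without 0 h replicate 1 (-0.76), 0 h replicate 2 (-0.70) or 72 h replicate 2 (-0.49). Pdk1, the HIF-responsive kinase, had 307 and 329.9 CPM at 0 h, 113 and 84.4 at 8 h, 161 and 124 at 24 h, 148 and 149.9 at 48 h and 107 and 105 at 72 h. All treated libraries were below both 0 h libraries. Pdk1 fell (log2 change -1.69 ± 0.16 at 8 h and -1.59 ± 0.16 at 72 h, edgeR adjusted p = 0.000166 and 8.75e-05).

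**Figure D2:**
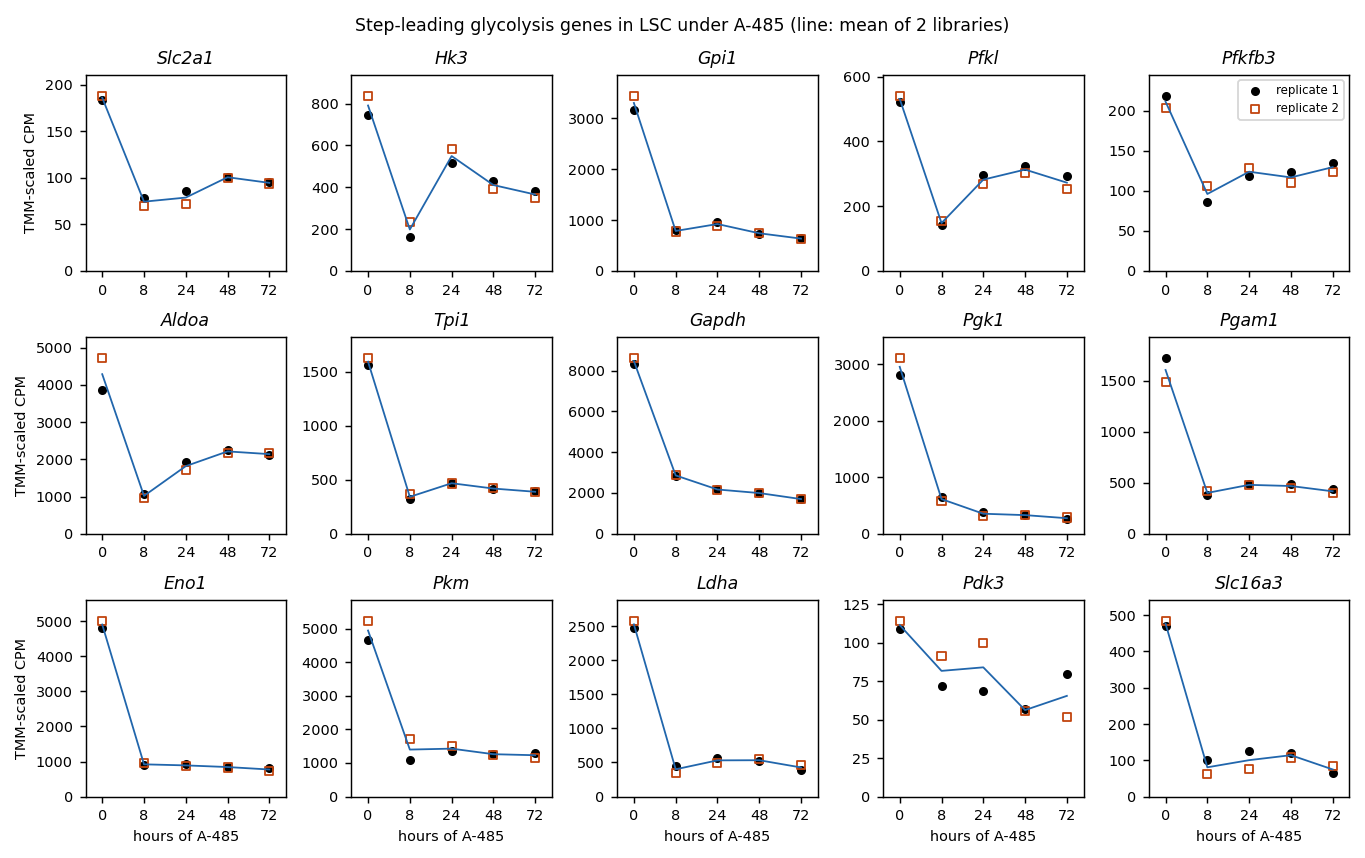
TMM-scaled CPM of the leading gene of each glycolysis step in each of the 10 time-course libraries, against hours of A-485 at equal spacing. Points are single libraries, filled for replicate 1 and open for replicate 2, and lines join their means. Eno1 stands at 741 to 950 in treated libraries, against 4812 and 5006 at 0 h, while Aldoa and Hk3 stand higher after 8 h than at 8 h.

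In the HIF arm, the oxygen-regulated subunits did not pass the test while most of their known targets fell. Hif1a had 546 and 401 CPM at 0 h, 381 and 330.0 at 8 h, 435 and 265 at 24 h, 428 and 379.7 at 48 h and 334 and 331 at 72 h. Treated libraries overlapped the 0 h libraries at 24 and 48 h. Its change was -0.41 ± 0.23 at 8 h and -0.51 ± 0.23 at 72 h (edgeR adjusted p = 0.175 and 0.0846). At 72 h Hif1a was called lower under some settings, with an edgeR adjusted p of 0.0232 without 24 h replicate 1, 0.0235 without 24 h replicate 2, 0.0366 with a replicate block, 0.0219 with the length trend removed and 0.0269 with only 0 and 72 h fitted, and a DESeq2 Wald adjusted p of 0.0474. At 24 h it was called without 24 h replicate 1 (-0.84). Epas1, the other alpha subunit, had 61.9 and 90.8 CPM at 0 h, 60.1 and 72.4 at 8 h, 79.5 and 114 at 24 h, 87.0 and 88.4 at 48 h and 97.7 and 87.9 at 72 h. The ranges overlapped at 8, 24, 48 and 72 h. Its change was -0.20 ± 0.22 at 8 h and 0.28 ± 0.22 at 72 h (edgeR adjusted p = 0.486 and 0.296), and by library size and on TPM it was called higher at 72 h (0.65 and 0.98).

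Arnt, the constant partner, was the exception. It had 66.2 and 73.3 CPM at 0 h, 99.9 and 107 at 8 h, 132 and 125 at 24 h, 142 and 151 at 48 h and 152 and 135 at 72 h. Every treated library was above both 0 h libraries. Arnt rose by 0.57 ± 0.11 at 8 h, 0.88 ± 0.11 at 24 h, 1.07 ± 0.11 at 48 h and 1.04 ± 0.11 at 72 h (edgeR adjusted p = 0.00401, 0.000339, 8.11e-05 and 9.75e-05). By library size and on log2(TPM + 1) the rise at 72 h was 1.41 and 1.71.

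Among the oxygen-sensing genes, the hydroxylase genes Egln3 and Egln1, both induced by HIF, fell. Egln3 had 1040.4 and 914 CPM at 0 h, 88.3 and 61.1 at 8 h, 125 and 96.5 at 24 h, 101 and 100.3 at 48 h and 78.4 and 82.1 at 72 h. The 0 h libraries were several-fold above every treated library. Egln3 fell (log2 change -3.71 ± 0.20 at 8 h and -3.61 ± 0.20 at 72 h, edgeR adjusted p = 1.75e-05 and 7.29e-06). Egln1 was lower at all 4 times (-0.88 to -1.49). Vhl, the ubiquitin ligase subunit, had 63.5 and 66.9 CPM at 0 h, 58.9 and 76.1 at 8 h, 68.4 and 78.4 at 24 h, 65.0 and 63.5 at 48 h and 72.4 and 63.0 at 72 h. The treated libraries overlapped 0 h at 8, 48 and 72 h, and both 24 h libraries were above it. Vhl gave 0.05 ± 0.15 at 8 h and 0.05 ± 0.15 at 72 h (edgeR adjusted p = 0.812 and 0.774), and on log2(TPM + 1) it was called higher at both times (0.47 and 0.75).

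Of the mitochondrial HIF targets, Bnip3, a mitophagy receptor, had 1125 and 1049 CPM at 0 h, 87.5 and 77.0 at 8 h, 173 and 134 at 24 h, 181 and 176 at 48 h and 156 and 165 at 72 h. The 8 h libraries were the lowest, and the later libraries were above them and far below 0 h. Bnip3 fell (log2 change -3.72 ± 0.14 at 8 h and -2.76 ± 0.14 at 72 h, edgeR adjusted p = 6.69e-06 and 5.12e-06). Higd1a, a respiratory chain protein of low oxygen, was lower at all 4 times (-0.96 to -1.97). Bnip3l, the second mitophagy receptor, was lower at 8, 24 and 72 h (-1.53, -1.19 and -1.17). Its 24 h call was lost without 0 h replicate 1 (-1.11), 0 h replicate 2 (-1.19) or 24 h replicate 2 (-0.78), and its 72 h call without 0 h replicate 1 (-1.09), 0 h replicate 2 (-1.17) or 72 h replicate 1 (-1.02). At 48 h Bnip3l (-0.87) was called lower without 8 h replicate 1 (-0.86) or without 8 h replicate 2 or either 24 h library (-0.87).

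Ero1l, an oxidase for disulfide bonds in the endoplasmic reticulum, had 2130.2 and 2414 CPM at 0 h, 234 and 91.4 at 8 h, 216 and 73.2 at 24 h, 191 and 169.7 at 48 h and 100.1 and 151 at 72 h. Both 0 h libraries were far above all treated ones, and replicate 1 was well above replicate 2 at both 8 and 24 h. Ero1l fell (log2 change -3.81 ± 0.57 at 8 h and -4.18 ± 0.58 at 72 h, edgeR adjusted p = 0.0013 and 0.000429). It was -4.62 at 8 h without 8 h replicate 1 and -4.95 at 24 h without 24 h replicate 1. P4ha1, a collagen prolyl hydroxylase subunit, was lower at all 4 times (-0.82 to -1.34), and its paralog P4ha2 was listed at 0 in every time-course library. Vegfa, the vascular growth factor, had 305 and 223 CPM at 0 h, 26.9 and 19.4 at 8 h, 48.7 and 29.8 at 24 h, 75.7 and 82.3 at 48 h and 54.3 and 95.6 at 72 h. It was lowest at 8 h and its 48 and 72 h libraries stood between 8 h and 0 h. Vegfa changed by -3.51 ± 0.34 at 8 h and -1.82 ± 0.32 at 72 h (edgeR adjusted p = 0.000182 and 0.00148). The vasodilator gene Adm had 1 count in 1 time-course library and was not tested.

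Of the other targets, Ndrg1, a stress-response gene, had 174 and 248 CPM at 0 h, 37.3 and 23.7 at 8 h, 169 and 108 at 24 h, 219 and 210.4 at 48 h and 148 and 199 at 72 h. The 8 h libraries lay far below 0 h, the 24 h libraries also lay below it, and the 48 and 72 h libraries overlapped it. Ndrg1 fell by 2.79 ± 0.30 at 8 h (edgeR adjusted p = 0.000288) and did not pass at 72 h (-0.29 ± 0.28, edgeR adjusted p = 0.404). At 24 h (-0.61) it was called lower without 24 h replicate 1 (-0.96). Ddit4, an inhibitor of the growth kinase mTORC1, had 86.4 and 68.5 CPM at 0 h, 40.9 and 44.1 at 8 h, 81.1 and 86.3 at 24 h, 55.4 and 55.0 at 48 h and 65.1 and 50.004 at 72 h. The 24 h libraries overlapped 0 h. Ddit4 gave -0.87 ± 0.16 at 8 h and -0.43 ± 0.16 at 72 h (edgeR adjusted p = 0.00386 and 0.0488). Its 72 h call was lost without 0 h replicate 1 (-0.21), 72 h replicate 2 (-0.25) or any 1 of the 8, 24 and 48 h libraries (-0.43). The 48 h call (-0.49) was lost without 0 h replicate 1 (-0.25), 48 h replicate 1 (-0.49) or 48 h replicate 2 (-0.48). Ankrd37, an ankyrin-repeat gene known as a HIF target, had 22.6 and 15.04 CPM at 0 h, 4.14 and 4.48 at 8 h, 6.91 and 3.80 at 24 h, 5.96 and 6.67 at 48 h and 5.13 and 5.62 at 72 h. No treated library reached 0 h. It fell (log2 change -2.12 ± 0.36 at 8 h and -1.81 ± 0.35 at 72 h, edgeR adjusted p = 0.00226 and 0.00265), and its 48 h call (-1.57) was lost without 0 h replicate 1 (-1.19).

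HIF binds DNA at a short core, ACGTG or GCGTG. The 250 bases before the start site are shown for 4 members that fell at every time and for Arnt, the 1 member that rose, to let the letters be compared. They are from RefSeq, build GRCm38.p6, the first listed start site of each gene, 5′ to 3′ on the gene's strand. Capitals mark matches to either core on either strand, which include the E-box CACGTG. Ldha lies at chr7:46845554-46845803, plus strand, Bnip3 at chr7:138909507-138909756, minus strand, Egln3 at chr12:54203875-54204124, minus strand, Ero1l (Ero1a in RefSeq) at chr14:45318573-45318822, minus strand, and Arnt at chr3:95434140-95434389, plus strand.
Ldha: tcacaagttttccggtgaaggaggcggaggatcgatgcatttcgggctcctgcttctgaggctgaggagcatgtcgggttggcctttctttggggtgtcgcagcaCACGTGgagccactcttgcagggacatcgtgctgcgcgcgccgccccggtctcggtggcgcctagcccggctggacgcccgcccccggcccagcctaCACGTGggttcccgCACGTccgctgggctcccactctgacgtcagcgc
Bnip3: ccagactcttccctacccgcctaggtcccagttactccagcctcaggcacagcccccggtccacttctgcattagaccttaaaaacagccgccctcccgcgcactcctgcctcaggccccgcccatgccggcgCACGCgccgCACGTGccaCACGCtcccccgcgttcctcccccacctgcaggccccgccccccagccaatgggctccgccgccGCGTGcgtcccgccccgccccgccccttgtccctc
Egln3: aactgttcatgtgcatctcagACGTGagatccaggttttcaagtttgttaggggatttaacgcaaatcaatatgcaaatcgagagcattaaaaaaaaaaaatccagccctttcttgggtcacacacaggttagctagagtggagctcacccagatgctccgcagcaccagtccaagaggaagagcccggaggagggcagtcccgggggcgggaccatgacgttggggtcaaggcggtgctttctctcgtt
Ero1l: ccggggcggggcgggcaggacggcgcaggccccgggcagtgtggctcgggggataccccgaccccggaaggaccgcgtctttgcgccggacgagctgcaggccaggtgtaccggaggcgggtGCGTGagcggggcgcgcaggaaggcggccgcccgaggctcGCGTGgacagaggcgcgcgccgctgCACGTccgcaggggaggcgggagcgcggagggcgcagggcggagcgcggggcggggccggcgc
Arnt: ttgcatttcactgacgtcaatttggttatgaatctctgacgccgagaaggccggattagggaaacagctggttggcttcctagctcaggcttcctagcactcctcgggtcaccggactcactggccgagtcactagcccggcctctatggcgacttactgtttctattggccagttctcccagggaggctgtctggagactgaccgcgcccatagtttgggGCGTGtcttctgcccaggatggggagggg

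Ldha held 5 core matches counted by strand, 4 of them inside 2 E-boxes, and Bnip3 held 5, of which 2 were in 1 E-box. Ero1l held 3, and Egln3 and Arnt 1 each. The promoters shown were picked. Counted by strand, Ldha and Bnip3 held the most matches of any member, and this counts each E-box as 2. Pdk3 held 4, none of them in an E-box. The first listed promoters of Hk1, Gpi1, Aldoa, Tpi1, Pkm and Vegfa held none, and these genes also fell at every time. For 4 of them this depended on the start site. The second listed promoter held 3 matches for Hk1, 1 each for Aldoa and Pkm and 2 for Vegfa. Gpi1 and Tpi1 had 1 listed promoter each. The first listed promoters of Eno2 and Vhl also held none. Hif1a, which did not pass the test at any time, held 3, of which 2 were in 1 E-box. A core was present in 31 of 39 members with a RefSeq promoter (79.5%), against 10431 of 27025 genes with one (38.6%). The E-box alone was in 5 members (12.8%) and 1634 genes (6.05%). Slc2a3, Bnip3l, Epas1 and Ndrg1 were not matched. These are letter matches in 1 window, and binding was not measured in these libraries. The 27025 genes were not limited to the 11119 tested for expression here, and the members were listed as pathway genes beforehand. What lies behind the gap in shares was not tested.

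Between 8 and 72 h the members did not move together. Relative to 8 h, 12 of 39 members were higher and 5 lower at 72 h, against 15.1% and 17.2% of all genes (edgeR adjusted p under 0.05). The higher ones were Slc2a1, Hk3, Pfkl, Pfkm, Pfkfb3, Pfkfb4 and Aldoa in upper glycolysis and Arnt, Egln1, Bnip3, Vegfa and Ndrg1 in the HIF arm. The lower ones were Gpi1, Gapdh, Pgk1, Slc16a1 and Higd1a. Ndrg1 rose most, by 2.51 ± 0.30, followed by Vegfa (1.70 ± 0.33), Pfkfb4 (1.11 ± 0.21) and Aldoa (1.07 ± 0.12). Slc16a1 fell most, by 2.61 ± 0.22, followed by Pgk1 (-1.16 ± 0.13). The 2 times share no libraries, though both sit in the same fit. Several of these calls were lost when 1 library was left out. The call of Slc2a1 (edgeR adjusted p = 0.0458) was lost without any 1 of the 0, 8, 48 and 72 h libraries (0.26 to 0.42). That of Gpi1 was lost without any 1 of the 8, 48 and 72 h libraries (-0.34 to -0.27). The 0 and 48 h libraries are not in this comparison, and without any 1 of them the Slc2a1 change stayed at 0.34 to 0.35. Pfkfb3 was not called without either 0 h library (0.43), 8 h replicate 1 (0.28), 72 h replicate 1 (0.37) or 72 h replicate 2 (0.49). Arnt was not called without 8 h replicate 1 (0.41) or 72 h replicate 1 (0.38), nor Pfkm without 8 h replicate 2 (0.34) or 72 h replicate 2 (0.37). Without 8 h replicate 1 Pkm was called lower (-0.49), and without 72 h replicate 2 Pfkp (0.74) and Ddit4 (0.62) were called higher. On log2(TPM + 1), 18 members were higher and 4 lower.

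Other genes of the pathways were called lower more often than higher. Of 69 listed symbols, 64 were found and 48 tested. At 8 h 27 were lower and 6 higher, against 21% and 17.9% of all genes, and at 72 h 24 were lower and 4 higher, against 29.4% and 25.9%. The median change of the 48 was -0.65 at 8 h and -0.62 at 72 h. The 5 largest changes at 8 h were all falls. Angptl4, a secreted lipase inhibitor, fell by 4.97 ± 0.52, and Stc2, a stanniocalcin, fell by 3.31 ± 1.03. Car9, the carbonic anhydrase that is a standard HIF target, fell by 3.19 ± 0.36, Ak4, a mitochondrial adenylate kinase, fell by 2.80 ± 0.12, and Mif, a cytokine, fell by 2.51 ± 0.16 (edgeR adjusted p = 0.000256, 0.0329, 0.00033, 6.99e-06 and 2.95e-05). The 6 that rose at 8 h were Bpgm, Pfkfb2, Tigar, Hif1an, Pdhb and Pdhx. Hif1an, which encodes an inhibitor of HIF, rose by 0.91 ± 0.13 (edgeR adjusted p = 0.00109). Of the pentose phosphate genes, chosen for mention after their values were seen, Tkt fell by 1.46 ± 0.15 and Pgls fell by 1.01 ± 0.13 at 8 h (edgeR adjusted p = 0.00023 and 0.000666), and Rpe did not pass (-0.01 ± 0.12, edgeR adjusted p = 0.973). Pyruvate dehydrogenase subunit genes, also chosen after their values were seen, went both ways at 8 h, with Pdha1 at -0.44 ± 0.09 and Pdhb at 0.49 ± 0.10 (edgeR adjusted p = 0.00573 and 0.00589).

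The untreated libraries of the time course did not match the LSC library in these genes. Of 40 members with at least 5 CPM, 24 were at least 2-fold higher in both 0 h libraries than in LSC, against 12.3% of all genes, and 1, Ldhb, was at least 2-fold lower, against 11.3%. No test was made, since LSC has 1 library and its spread is unknown. The median log2 ratio of the members was 1.65, against -0.10 for all genes. Here ratios are of TMM-scaled CPM over all 13 libraries with a prior count of 5, the 2 values are for the 2 libraries, and levels are in TPM.

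In the HIF arm, Egln3 had 482 and 422 TPM at 0 h, against 12.2 TPM in LSC (log2 ratios 5.15 and 4.96). Bnip3 had 844 and 785 TPM at 0 h, against 25.9 TPM in LSC (4.84 and 4.74). Egln1 had 85.2 and 83.4 TPM at 0 h, against 8.80 TPM in LSC (3.13 and 3.11). Both 0 h libraries exceeded LSC in all of these by more than the 0 h libraries differed from each other. Hif1a had 136 and 99.3 TPM at 0 h, against 26.2 TPM in LSC (2.25 and 1.81). Epas1 had 13.6 and 19.9 TPM at 0 h, against 0.06 TPM in LSC, from 9 counts in LSC (6.78 and 7.32). Arnt differed little (-0.24 and -0.09).

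Along glycolysis, the ratios were uneven. The transporters Slc2a1 (2.72 and 2.76) and Slc2a3 (3.26 and 2.42) and the phosphofructokinases Pfkm (3.55 and 3.69), Pfkp (2.43 and 2.58) and Pfkl (1.62 and 1.68) were higher at 0 h. So were Aldoa (1.61 and 1.90), Pgk1 (1.86 and 2.01), Eno1 (1.84 and 1.90), Ldha (1.85 and 1.90) and the transporters Slc16a1 (2.06 and 2.11) and Slc16a3 (1.74 and 1.79). Gapdh had 8054 and 8294 TPM at 0 h, against 4465 TPM in LSC (0.72 and 0.77), under 2-fold. Gpi1 (0.17 and 0.30), Pgam1 (0.40 and 0.20), Pkm (0.73 and 0.89) and Hk1 (0.51 and 0.62) were also within 2-fold, as was Hk3, below LSC in both (-0.58 and -0.41). Ldhb had 0.67 and 0.17 TPM at 0 h, against 149 TPM in LSC, from 5 and 1 counts at 0 h and 4783 counts in LSC. The 18 enzyme genes made up 2.63% and 2.80% of TPM at 0 h, against 1.18% in LSC.

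After A-485 the members stood on both sides of the LSC library. Of 39 considered at each of 8 and 72 h, 9 were at least 2-fold above LSC in both libraries at 8 h and 10 below, against 12.4% and 16.3% of all genes. At 72 h 9 were above and 12 below, against 15.5% and 21.9%. Slc2a1, Pfkm, Aldoc, Egln1, Egln3, Hif1a, Epas1 and P4ha1 were above at 0, 8 and 72 h. Egln3, for example, had log2 ratios to LSC of 1.43 and 1.502 at 72 h, against 5.15 and 4.96 at 0 h. Vegfa (-2.86 and -3.33 at 8 h), Gpi1 (-1.79 and -1.83), Pgam1 (-1.76 and -1.61) and Hk3 (-2.74 and -2.24) were below LSC. Eno1 (-0.58 and -0.48) and Ldha (-0.58 and -0.97) were within 2-fold of it. These ratios and the A-485 changes share the time-course libraries. The LSC library differed in the markers given above, and whether those cells were cultured alike is not given in the sources used here.

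**Figure D3:**
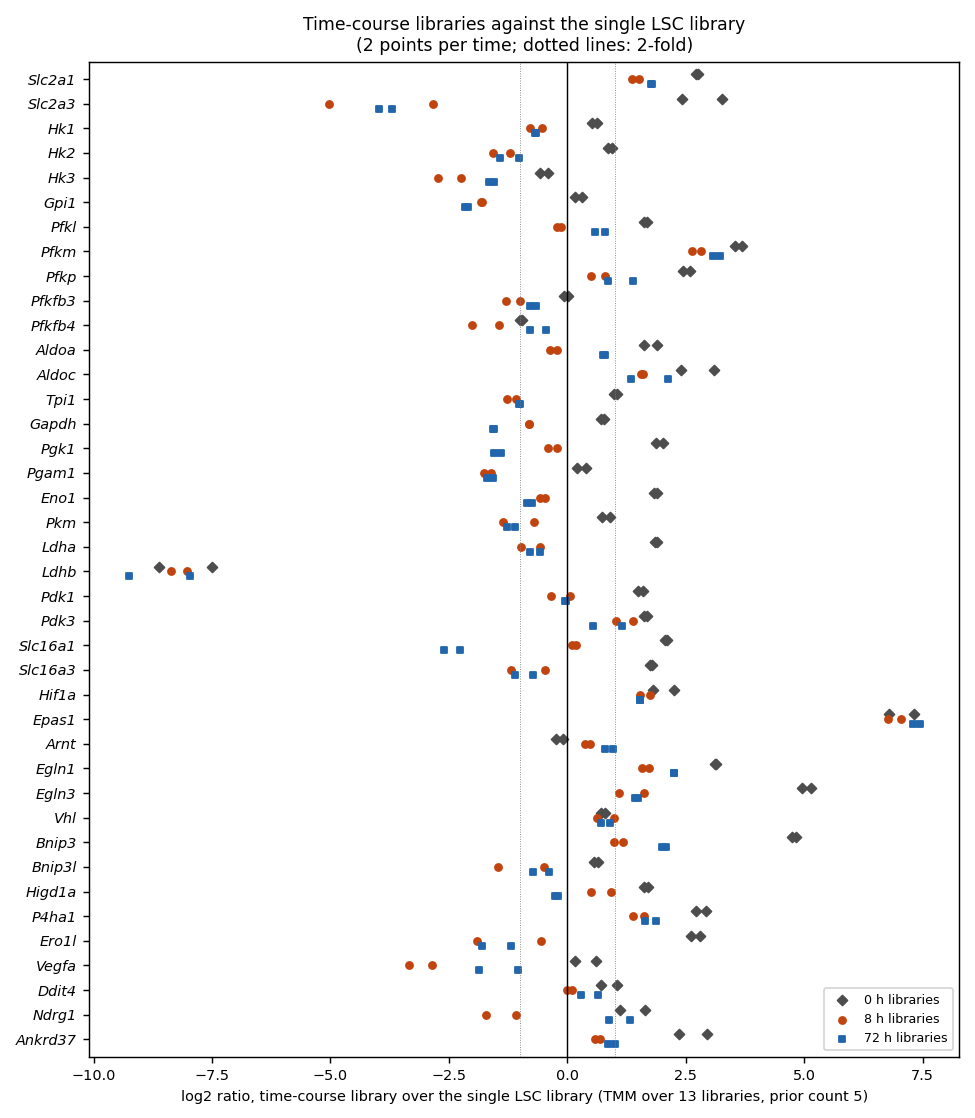
Log2 ratio of each 0 h, 8 h and 72 h library to the single LSC library for 40 members, with glycolysis above and the HIF arm below. Each time has 2 points and the dotted lines mark 2-fold. Most 0 h points lie right of 0, Egln3 at 5.15 and 4.96, and most treated points lie nearer to or left of 0.

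Among the 3 single libraries the summed enzyme share was similar, and single genes differed in both directions. With 1 library each there was no test, and brackets give exact 95% binomial intervals, which cover counting error only. The 18 enzyme genes made up 1.01% of TPM in mAML, 1.18% in LSC and 1.06% in GMP. Of 38 members considered, 5 were at least 2-fold higher and 5 lower in mAML than in LSC, against 14.6% and 7.15% of all genes. In LSC against GMP 6 were higher and 7 lower, against 11.8% and 9.82%, and in mAML against GMP 9 were higher and 5 lower, against 20.8% and 12.9%. The comparisons share libraries.

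Gapdh had 3890.0 TPM in mAML, 4465 in LSC and 3415 in GMP. Ldha had 467 TPM in mAML, 497 in LSC and 838 in GMP, a log2 ratio of -0.53 [-0.56, -0.50] for LSC over GMP. Ldhb ran the other way between LSC and GMP, with 51.8 TPM in mAML, 149 in LSC and 64.9 in GMP (-1.42 [-1.50, -1.35] for mAML over LSC and 1.43 [1.34, 1.53] for LSC over GMP). The lactate transporters split. Slc16a3 was higher in LSC than in GMP (2.63 [2.49, 2.78]), and Slc16a1 was lower (-2.68 [-2.80, -2.58]). In TPM, Slc16a1 had 2.80 in mAML, 6.67 in LSC and 50.7 in GMP.

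The transporter Slc2a3 and the aldolase Aldoc were highest in mAML. Slc2a3 had 52.2 TPM in mAML, 4.35 in LSC and 5.02 in GMP, 3.68 [3.56, 3.83] for mAML over LSC. Aldoc had 30.2 TPM in mAML, 4.38 in LSC and 0.22 in GMP, with 9 counts in GMP. In mAML, mature myeloid markers summed to 95398 TPM, against 22303 TPM in LSC, and erythroid markers to 3922 TPM against 40.2 TPM. The part of these cell types in the member differences was not tested.

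In the HIF arm, Vegfa had 3.50 TPM in mAML, 65.1 in LSC and 17.4 in GMP, a ratio of -4.11 [-4.28, -3.98] for mAML over LSC and 2.14 [2.04, 2.25] for LSC over GMP. Egln3 had 3.55 TPM in mAML, 12.2 in LSC and 47.0 in GMP (-1.66 [-1.87, -1.48] and -1.71 [-1.84, -1.60]). Ddit4 had 39.6 TPM in mAML, 28.8 in LSC and 3.25 in GMP, 3.31 [3.04, 3.72] for LSC over GMP. Hif1a was near even, with 29.3 TPM in mAML, 26.2 in LSC and 29.9 in GMP. HIF targets did not share 1 order among the 3 libraries. Vegfa and Ddit4 were higher in LSC than in GMP while Egln1 (-1.61 [-1.73, -1.49]), Egln3, Higd1a (-1.17 [-1.31, -1.04]) and P4ha1 (-1.07 [-1.20, -0.95]) were lower.

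**Figure D4:**
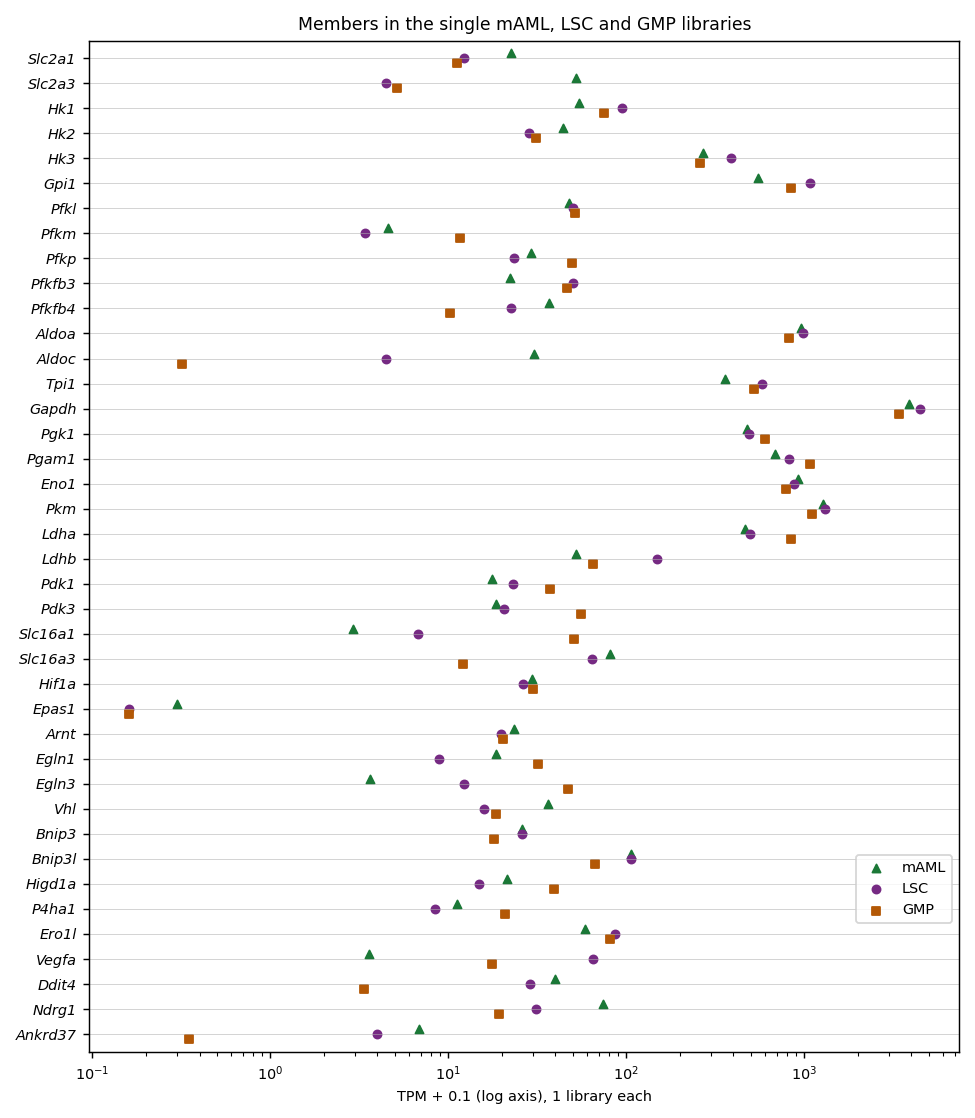
TPM plus 0.1 on a log axis for 40 members in the single mAML, LSC and GMP libraries, 1 point per library. Gapdh is highest in all 3, and Vegfa, Slc2a3 and Slc16a1 show wide gaps between libraries.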

How the data were processed

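Messenger RNA was sequenced in 13 libraries, and each gene's values were deposited per library. STAR, RSEM and mouse build mm9 are named in the submitters' processing notes, without versions, strand setting or gene model. The expected counts deposited by the authors are estimated reads per gene, per the file headers, and their deposited TPM adjust these for transcript length and library depth. Rounded expected counts entered the tests. The time course was fitted with edgeR 4.0.16 in R 4.3.3 (filterByExpr, TMM, quasi-likelihood test, 11119 genes, time as a factor, 10 libraries in 1 model, no replicate block), with Benjamini-Hochberg adjustment over all genes and calls at 0.05. Standard errors are the absolute log2 change over the square root of F. Single libraries were compared without a test, as log2 ratios of TMM-scaled CPM (prior count 5), counted at 2-fold where the higher library had 5 CPM or more. Alternatives used limma 3.58.1 and DESeq2 1.42.0. RefSeq promoters were searched for motifs. At each step the member with the highest mean TPM in the time course is given per library. The others are given by range, or with values where the call differs from that member at 8 or 72 h or the 8 h change is among the 5 largest. The members and lists were chosen with earlier results of these data known. The edgeR fit was also run on simulated data, with falls planted in a small set of genes and no rises. With so few changed genes that run could not test the scaling.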

Additional observations from a re-analysis of the deposited data

How the results depend on the processing

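Across the settings tried, members called lower at 8 h ranged from 31 to 34. Leaving out 1 library gave 32 to 34 lower at 8 h, 27 to 30 at 24 h, 29 to 32 at 48 h and 29 to 33 at 72 h, with 1 higher, except 1 to 2 at 48 h, where Pfkfb4 was added without 8 h replicate 1 or 2. For 72 h against 8 h it gave 4 to 5 lower and 9 to 12 higher. By library size alone the higher calls were 3 at 24 h, 2 at 48 h and 4 at 72 h. On log2(TPM + 1) and log2(TPM + 0.5) the higher calls were 2, 5, 5 and 4 at 8, 24, 48 and 72 h, and the lower calls were 20 at 48 h and 21 at 72 h. With only the 2 times compared, 2 were higher at 48 h. The cause was not tested.

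Signs of uncalled or weakly called genes turned as follows. At 8 h Epas1 was 0.11 by library size, 0.25 on log2(TPM + 1), 0.26 on log2(TPM + 0.5), and -0.41 to 0.14 when 1 library was left out. Hif1a on TPM was 0.049 at 8 h with either pseudocount and 0.22 at 72 h. At 72 h Pfkm was 0.23, Ddit4 0.27 and Ndrg1 0.43 on TPM, and Ndrg1 was 0.080 by library size and -0.51 to 0.029 when 1 library was left out. Leaving out 1 library put Vhl at -0.14 to 0.24 at 8 h and -0.046 to 0.16 at 72 h. The cause was not tested. The next count covers the members' changes at 8 and 72 h against 0 h, and those called at 72 h against 8 h. Of these, 1767 kept their direction and side of the threshold, 97 lost a call, 18 gained one and 18 changed sign. Changes at 24 and 48 h were not in that count, and some turned there. At 48 h Vhl kept its direction in 10 of 20 settings and Hif1a in 16, and at 24 h Aldoc in 17. Of the counts of members called, 182 stayed within 1.5 times and 18 moved by more. All 68 counts over single libraries stayed within 1.5 times, the widest being 9 to 6 higher in mAML against GMP on TPM. Of single members' ratios there, 603 moved by less than their counting interval and 561 by more.

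Same-numbered libraries of 8 and 24 h deviated together (correlation of replicate differences 0.644), those of 72 h deviated against both (-0.402 and -0.408), and the other pairs of times gave 0.0243 to 0.151. Since not every pair of times was over 0.1, the numbers were not taken to pair the samples. With a replicate block the members were 34, 30, 32 and 33 lower and 1 higher at the 4 times, and 5 lower and 12 higher at 72 h against 8 h. With the length trend removed, 34 and 32 were lower at 8 and 72 h. Eno2, P4ha2 and Adm had 0 to 3 counts in any time-course library. Ldhb was at 0.572 and 0.129 CPM at 0 h, against 148 CPM in LSC, a gap that depth does not set.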
